A study of Mus musculus with 6 samples.

Results

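Gliosis and retinal stress response genes are genes whose RNA is commonly followed when retinal glia react to injury. The list names 9 genes (*Gfap*, *Vim*, *Stat3*, *Edn2*, *Fgf2*, *Cebpd*, *B2m*, *Serpina3n* and *Lif*), and those with a row under that symbol in the deposited RNA-seq table were taken. This gave 4 of the 11339 genes in the table: *Gfap*, *Vim*, *Stat3* and *B2m*. *Cebpd*, *Edn2*, *Fgf2*, *Lif* and *Serpina3n* were not analysed here. The RPKM of the 4 genes was compared between 3 *Mll1KO* and 3 WT samples of retina at P14, to judge whether RNA markers of reactive gliosis differed after loss of MLL1, a histone H3 lysine 4 methyltransferase. *Mll1KO* mice were MLL1 fl/fl with Chx10-Cre and WT mice were wild type, all C57Bl6/J and of both sexes. Chx10-Cre is expressed in retinal progenitors, and each sample pooled a pair of retinas. Only *Mll1KO* mice are labelled as carrying Cre and floxed alleles. The paper names the RNA-seq controls as wild type, not as the Cre-negative littermates of its other assays, and states that its mice were backcrossed to this strain. Loss of MLL1 therefore cannot be told apart from presence of Cre or of the floxed alleles. The same holds for any difference in litter, colony or remaining background.

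The targeted gene was examined first. *Kmt2a*, the current symbol of *Mll1* (GRCm38 chr9:44803355-44881296, minus strand), had an RPKM (reads divided by gene length and library depth) of 36.1, 36.9 and 34.6 in WT a, b and c, against 22.9, 20.4 and 22.3 in *Mll1KO* a, b and c. Every *Mll1KO* value was below every WT value. *Kmt2a* fell to 60.9% of its WT mean (log2 fold change -0.69, SE 0.050, adjusted p = 2.77e-05 in limma). Its RPKM covers the whole gene, including exons that Cre does not excise. In bulk RNA, fewer cells with a transcript and less RNA per cell cannot be told apart. The tissue label was checked against 19 rod genes, which all had a row. Their summed RPKM was 19466 to 20492 in WT and 24138 to 24889.9 in *Mll1KO*.

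Library totals were inferred from the RPKM values. They were 23836033, 19777205 and 19323512 reads for WT replicates a, b and c. For *Mll1KO* replicates a, b and c they were 23348923, 19855963 and 17961097 reads. The genes of the table held 98.4% of each total, so it need not be the sequencing depth. Across all genes, limma called 2643 (23.3%) at an adjusted p below 0.05, with 999 higher (8.81%) and 1644 lower (14.5%) in *Mll1KO*. With TMM factors this split became 1257 higher and 1163 lower. The values of the genotypes did not overlap in 41.1% of all genes. Over all genes the median log2 fold change was -0.030. It moved to -0.29 with every library set to the same total of rod RNA (rod scaling), and to -0.30 with the same total of Müller glia RNA (Müller glia scaling). Under these scalings 2.11% and 1.95% of all genes were called higher and 81.6% and 84.1% lower, so a value below 0 there follows in part from the scaling. With 1 library left out, 5.94% to 8.62% of all genes were called higher and 9.08% to 13.7% lower.

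Müller glia span the retina and keep its ions, transmitters and metabolites in balance, while astrocytes enter from the optic nerve and lie along vessels and axons at the inner surface. When these cells become reactive they make more intermediate filament protein, above all GFAP. Cytokines of the LIF family act through gp130 and STAT3, and endothelin and FGF2 carry further signals between stressed photoreceptors and glia.

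Of the 4 genes, 2 were called beside 23.3% of all genes: 1 higher beside 8.81% (*Gfap*) and 1 lower beside 14.5% (*Vim*). The genotypes did not overlap in 3 of 4 genes (*Gfap*, *Vim* and *Stat3*), beside 41.1% of all genes.

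*Gfap* encodes glial fibrillary acidic protein, which astrocytes make at all times and Müller glia mainly when reactive (GRCm38 chr11:102887336-102900912, minus strand). Its RPKM was 3.81, 4.40 and 4.16 in WT a, b and c, against 10.2, 8.50 and 8.42 in *Mll1KO* a, b and c. The lowest *Mll1KO* value lay well above the highest WT value, and *Mll1KO* sample a was the highest. The mean rose 2.20-fold, from 4.12 ± 0.297 RPKM (SD, n = 3) to 9.06 ± 1.03 RPKM (SD, n = 3). The log2 fold change was 0.97 (95% interval 0.80 to 1.14, standard error 0.078, limma adjusted p = 4.26e-05), which ranked 24 from the highest of 11339 genes. Both are of RPKM + 1. With 0.1 or 5 added in place of 1, the log2 fold change was 1.11 or 0.62. These values rest on 339 to 1009 reads per library.

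*Vim* encodes vimentin, the filament protein that Müller glia and astrocytes make at all times and that vessel cells also contain (GRCm38 chr2:13573927-13582826, plus strand). Its RPKM was 116, 115 and 118 in WT a, b and c, against 80.0, 84.1 and 87.4 in *Mll1KO* a, b and c. All *Mll1KO* samples lay below all WT samples, with a gap far wider than the spread of WT. *Vim* fell to 71.9% of its WT mean, from 117 ± 1.44 RPKM (SD, n = 3) to 83.8 ± 3.72 RPKM (SD, n = 3). The log2 fold change was -0.47 (95% interval -0.57 to -0.38, standard error 0.042, limma adjusted p = 8.29e-05). *Gfap* and *Vim* kept their direction and their call in each of 17 alternatives with at least 2 samples per genotype. A further fit, to the 3 libraries with the least pigment epithelium RNA, holds WT b as its lone WT sample and is left out of all counts over alternatives.

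**Figure D1:**
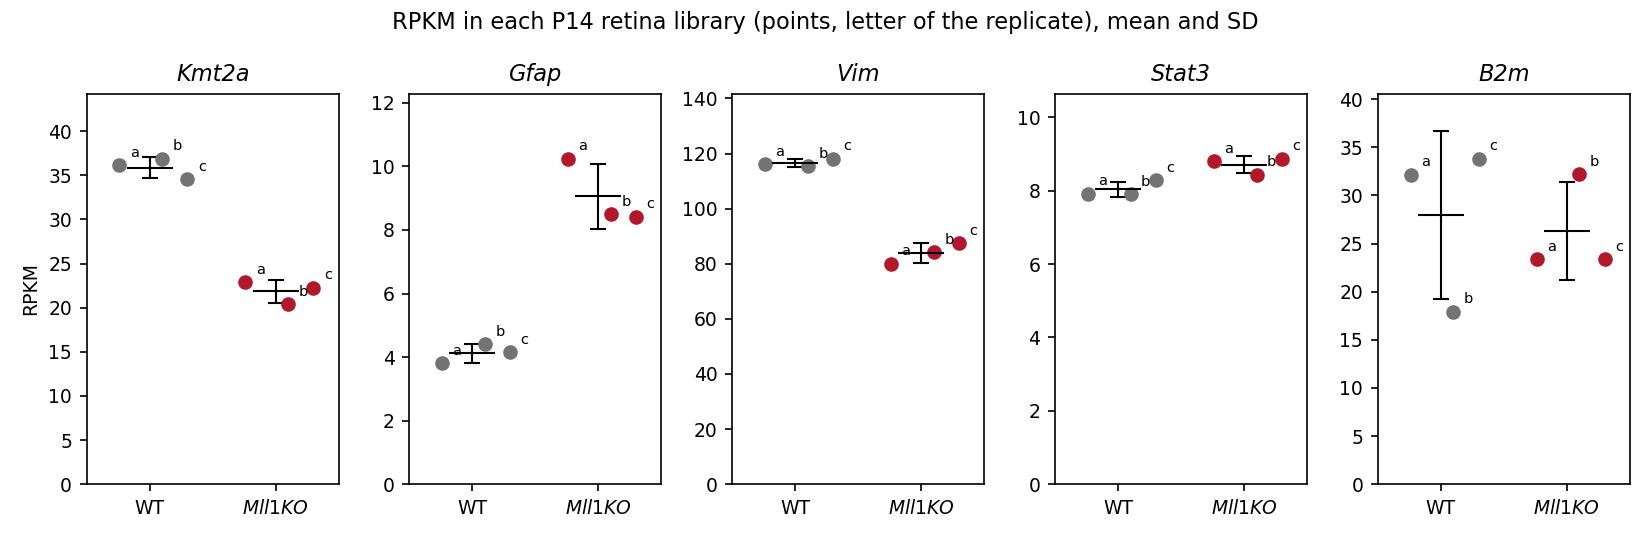
RPKM of *Kmt2a* and of the 4 gliosis and stress genes in each library (vertical axes, from 0), with WT on the left and *Mll1KO* on the right of each panel and bars for mean and SD. *Gfap* is higher and *Vim* lower in every *Mll1KO* sample, while the *B2m* samples overlap.

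The filament genes moved in opposite directions, and their ratio within each library does not depend on library scaling. Per 100 RPKM of *Vim*, *Gfap* had 3.28, 3.81 and 3.52 RPKM in WT a, b and c, against 12.8, 10.1 and 9.64 RPKM in *Mll1KO* a, b and c. The mean was 3.07-fold higher in *Mll1KO*, and that the genotypes do not overlap follows from the direction of each gene. Per 100 RPKM of 19 Müller glia genes, *Gfap* had 0.214 to 0.249 RPKM in WT and 0.371 to 0.461 RPKM in *Mll1KO*. *Vim* had 6.16 to 6.52 RPKM in WT and 3.6 to 3.86 RPKM in *Mll1KO* on the same scale. *Stat3* had 0.432 to 0.447 RPKM in WT and 0.369 to 0.397 RPKM in *Mll1KO*. The genotypes did not overlap in any of these, *Gfap* being higher and *Vim* and *Stat3* lower per unit of this sum. For *Gfap* and *Stat3* exact permutation gave p = 0.1, the smallest that 3 against 3 samples allow (0.125 after Benjamini-Hochberg adjustment over 5 ratios). For *Vim* it follows from the direction of *Vim* and of the sum. The sum is carried by its most abundant genes. Under the Müller glia scaling the median log2 fold change of these 19 genes was -0.19, beside -0.17 for *Stat3*, which was thus not lower than the typical gene of that list.

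Of the glial filament list, 4 of 5 genes had a row, and 1 was called higher (*Gfap*) and 2 lower (*Vim* and *Nes*), beside 8.81% and 14.5% of all genes. There were 3 lower under either the rod or the Müller glia scaling, beside 81.6% and 84.1% of all genes lower. Unscaled, the median log2 fold change was -0.082 (-0.022 and -0.020 relative to all genes under these scalings). Without *Gfap* and *Vim* it had 2 genes, 0 called higher and 1 lower (median -0.082). Leaving out any library but WT a brought the lower calls to 1, beside 9.08% to 13.7% of all genes. *Nes* encodes nestin, a filament protein of progenitors and reactive glia, and had 2.31, 2.38 and 2.77 RPKM in WT a, b and c, against 1.94, 2.03 and 2.08 RPKM in *Mll1KO* a, b and c. The values were low and lay close together without overlap (log2 fold change -0.21, SE 0.062, adjusted p = 0.0377 in limma), and the call was lost in 9 of 17 alternatives. *Synm*, which encodes the filament linker synemin, had 6.23 to 6.79 RPKM in WT and 6.19 to 7.07 RPKM in *Mll1KO*, and the genotypes overlapped, with a log2 fold change of 0.045 and no call. Under the rod and Müller glia scalings it was called lower, at -0.21 and -0.22 (limma adjusted p = 0.0183 and 0.00940, within a range of 0.00940 to 0.951 over 17 alternatives).

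*Stat3* encodes the transcription factor that gp130 cytokines activate (GRCm38 chr11:100885098-100939540, minus strand). Its RPKM was 7.92, 7.91 and 8.28 in WT a, b and c, against 8.81, 8.44 and 8.88 in *Mll1KO* a, b and c. Every *Mll1KO* value was above every WT value, but the gap was narrow. No difference was called (log2 fold change 0.10, 95% interval -0.00479 to 0.21, standard error 0.048, limma adjusted p = 0.152). Under the rod scaling the log2 fold change turned to -0.16 (limma adjusted p = 0.0282). Under the Müller glia scaling it was -0.17 (limma adjusted p = 0.0200, within a range of 0.0200 to 0.326 over 17 alternatives). Relative to the median of all genes, *Stat3* stood at 0.13 in each case, so its direction depends on the scaling.

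Of the gp130, JAK and STAT3 list, 13 of 24 genes had a row, and 2 were called higher and 1 lower, beside 8.81% and 14.5% of all genes. This turned to 1 higher and 10 lower under either the rod or the Müller glia scaling, beside 2.11% and 1.95% of all genes higher and 81.6% and 84.1% lower. By median the list stood at a log2 fold change of 0.062 (0.073 and 0.078 relative to all genes under these scalings). The list holds *Stat3*, and its other 12 genes had 2 called higher and 1 lower (median 0.056). Leaving out any library but *Mll1KO* c brought the higher calls to 1, beside 5.94% to 8.62% of all genes. *Cntfr*, which encodes the receptor subunit that binds CNTF, had 14.5, 13.0 and 12.6 RPKM in WT a, b and c, against 18.7, 21.1 and 21.6 RPKM in *Mll1KO* a, b and c. All *Mll1KO* samples were higher and *Cntfr* rose in every alternative (log2 fold change 0.58, SE 0.067, adjusted p = 0.000348 in limma). *Osmr*, the oncostatin M receptor gene, was scarce, with 0.474 to 0.551 RPKM in WT and 0.625 to 0.873 RPKM in *Mll1KO*. Its samples did not overlap (log2 fold change 0.20, SE 0.060, adjusted p = 0.0356 in limma), and the call was lost in 9 of 16 alternatives. The log2 fold change ran from 0.059 to 0.53 over these, and the mean RPKM was 1.46-fold higher. At so low a level, adding 1 to RPKM before the log shrinks the value. *Il6st*, which encodes gp130 itself, had 11.4 to 11.5 RPKM in WT and 11.5 to 12.6 RPKM in *Mll1KO*, with a log2 fold change of 0.051 and no call (limma adjusted p = 0.489). Under the rod and Müller glia scalings *Il6st* was called lower, at -0.22 and -0.24 (limma adjusted p = 0.00456 and 0.00371, within a range of 0.00371 to 0.874 over 17 alternatives). *Lifr*, the LIF receptor gene, had 14.5 to 15.1 RPKM in WT and 13.1 to 14.5 RPKM in *Mll1KO*, without a call (limma adjusted p = 0.171) other than lower under these scalings. *Pias3*, which encodes an inhibitor of STAT3 and was the most abundant gene of the list, had 83.0, 83.4 and 78.5 RPKM in WT a, b and c, against 62.8, 67.0 and 63.7 RPKM in *Mll1KO* a, b and c. It fell without overlap (log2 fold change -0.34, SE 0.042, adjusted p = 0.000560 in limma).

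*B2m* encodes beta-2 microglobulin, the light chain of MHC class I (GRCm38 chr2:122147686-122153083, plus strand). Its RPKM was 32.1, 17.9 and 33.8 in WT a, b and c, against 23.4, 32.2 and 23.4 in *Mll1KO* a, b and c. WT sample b was the lowest of all and the genotypes overlapped. No difference was called (log2 fold change -0.049, 95% interval -0.51 to 0.42, standard error 0.21, limma adjusted p = 0.892). With 1 library left out the value ran from -0.33 to 0.11. It was above 0 without WT a, WT c, *Mll1KO* a or *Mll1KO* c. *B2m* had 305 to 659 reads per library, and its spread within each genotype was the widest of the 4 genes.

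The 3 libraries with the most *B2m* RNA also held the most RNA of the pigment epithelium, a layer that lies against the retina. Its list had 5 of 10 genes with a row, and limma called 0 (1 at an unadjusted p below 0.05, beside 36.9% of all genes, and 0 called by limma-voom, beside 25.6%), with a median log2 fold change of -0.29 (-0.28 and -0.28 relative to all genes under these scalings), and *Ttr* the most abundant. Of these, 3 were called lower without WT b (beside 9.08% of all genes, with a list median of -0.98), 2 without *Mll1KO* b (beside 10.4%), and 3 under either the rod or the Müller glia scaling, beside 81.6% and 84.1% of all genes lower. With 1 library left out, the list median ran from -0.98 without WT b to -0.11 without WT c. *Rpe65*, *Best1*, *Tyr*, *Lrat* and *Mlana* were not analysed here. The summed RPKM was 219, 115 and 328 in WT a, b and c, against 103, 223 and 108 in *Mll1KO* a, b and c. WT samples a and c and *Mll1KO* sample b were the highest in both measures, as they were in *Pmel*, a pigment granule gene with 57.1, 15.1 and 99.4 RPKM in WT a, b and c, against 9.37, 34.0 and 11 RPKM in *Mll1KO* a, b and c. Per 100 RPKM of the pigment epithelium list, *B2m* had 10.3 to 15.6 RPKM in WT and 14.4 to 22.8 RPKM in *Mll1KO*, which overlapped (exact permutation p = 0.3). With the pigment sum as a covariate, chosen after seeing the data, the log2 fold change of *B2m* was 0.26 (limma adjusted p = 0.0746). Under the Müller glia scaling *B2m* was called lower, at -0.35 (limma adjusted p = 0.0340, within a range of 0.0340 to 0.970 over 17 alternatives). Relative to the median of all genes it stood at -0.044 there, beside -0.018 without that scaling. The uncounted fit to 3 libraries, chosen after seeing the data, called *B2m* higher, at 0.37. Its lone WT sample is the lowest in *B2m*, so nothing is read from it. How much of the *B2m* RNA came from the pigment epithelium was not tested.

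**Figure D2:**
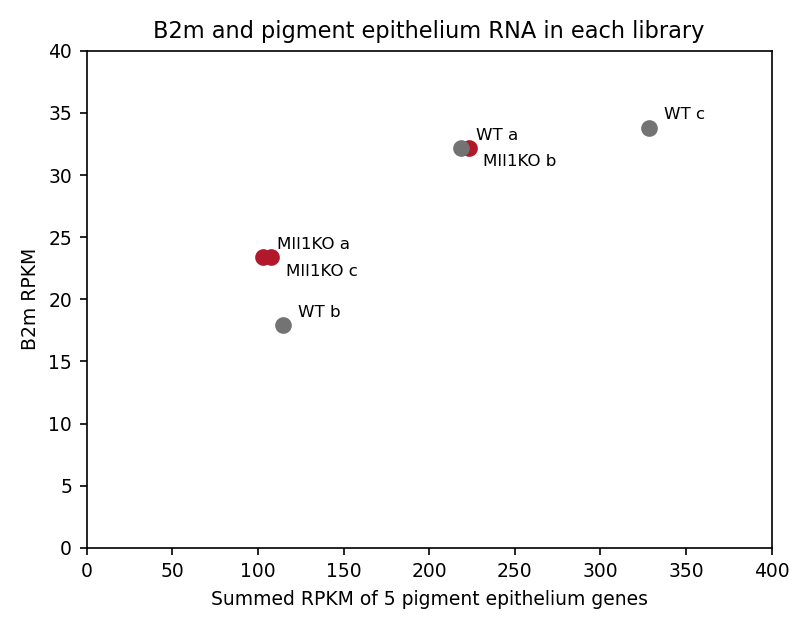
*B2m* RPKM (vertical axis) against the summed RPKM of 5 pigment epithelium genes (horizontal axis) in each of the 6 libraries, by genotype. The 3 libraries with the highest pigment sum also have the highest *B2m*.

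Of the MHC class I list, 12 of 19 genes had a row, and 1 was called higher and 0 lower, beside 8.81% and 14.5% of all genes. This turned to 0 higher and 7 lower under the rod scaling and 9 lower under the Müller glia scaling, beside 2.11% and 1.95% of all genes higher and 81.6% and 84.1% lower. The list median was 0.0080 (0.028 and 0.027 relative to all genes under these scalings). The list holds *B2m*, and its other 11 genes had 1 called higher and 0 lower (median 0.018). Without *Mll1KO* c, 2 were called higher, beside 6.21% of all genes. *Tapbp* encodes tapasin, which loads peptides, and had 12.8, 11.9 and 13.2 RPKM in WT a, b and c, against 15.0, 16.9 and 16.0 RPKM in *Mll1KO* a, b and c. All *Mll1KO* samples were higher (log2 fold change 0.31, SE 0.057, adjusted p = 0.00396 in limma), though 29.0% of its exon length is shared with other genes. *Calr*, a chaperone gene and the most abundant of the list, was not called (limma adjusted p = 0.185) other than lower under these scalings.

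Of the interferon response list, 8 of 15 genes had a row, and 1 was called higher and 0 lower, beside 8.81% and 14.5% of all genes. There were 1 higher and 2 lower under the rod scaling and 1 higher and 3 lower under the Müller glia scaling, beside 2.11% and 1.95% of all genes higher and 81.6% and 84.1% lower. Its genes had a median log2 fold change of 0.17 (0.24 and 0.24 relative to all genes under these scalings). This median was 0.075 without *Mll1KO* b and 0.25 without *Mll1KO* c. Without *Mll1KO* c, 2 were called higher, beside 6.21% of all genes. *Irf7*, a transcription factor gene that interferon induces, had 4.36, 3.80 and 4.11 RPKM in WT a, b and c, against 5.64, 7.45 and 5.51 RPKM in *Mll1KO* a, b and c. It rose without overlap, *Mll1KO* sample b being the highest (log2 fold change 0.49, SE 0.096, adjusted p = 0.00575 in limma). *Ifitm3*, an antiviral gene and the most abundant of the list, had 16.6, 10.4 and 17.1 RPKM in WT a, b and c, against 16.7, 28.4 and 18.9 RPKM in *Mll1KO* a, b and c. The same sample was the highest, the genotypes overlapped and no difference was called (log2 fold change 0.51, limma adjusted p = 0.1). Over 17 alternatives the value of *Ifitm3* ran from 0.21 to 0.81, and it was called in 1 of them. With the pigment sum as a covariate, 2 genes of the list were called higher, beside 8.12% of all genes.

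Of the endothelin list, 2 of 7 genes had a row and limma called 0 (0 at an unadjusted p below 0.05, beside 36.9% of all genes, and 0 called by limma-voom, beside 25.6%), with a median log2 fold change of 0.020 (0.044 and 0.043 relative to all genes under these scalings). Under either the rod or the Müller glia scaling both were called lower, beside 81.6% and 84.1% of all genes lower. They encode converting enzymes, and *Ece1*, the more abundant, had 13.1 to 13.8 RPKM in WT and 13.3 to 13.8 RPKM in *Mll1KO*, which overlapped.

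Of the FGF list, 16 of 18 genes had a row, and 4 were called higher and 0 lower, beside 8.81% and 14.5% of all genes. This turned to 1 higher and 9 lower under either the rod or the Müller glia scaling, beside 2.11% and 1.95% of all genes higher and 81.6% and 84.1% lower. Its median log2 fold change was 0.035 (0.086 and 0.086 relative to all genes under these scalings). The share called is near that of all genes, and the higher calls fell to 1 without WT b (beside 5.94% of all genes) and 2 without *Mll1KO* c (beside 6.21%), with 1 lower without *Mll1KO* a (beside 13.7%). *Etv4*, a transcription factor gene that FGF receptors induce, had 2.07, 2.17 and 2.30 RPKM in WT a, b and c, against 3.81, 3.49 and 3.17 RPKM in *Mll1KO* a, b and c. The genotypes were well apart and the call held in every alternative (log2 fold change 0.50, SE 0.064, adjusted p = 0.000637 in limma). *Etv5*, of the same family, rose, with 5.42 to 6.18 RPKM in WT and 6.87 to 8.35 RPKM in *Mll1KO* (log2 fold change 0.31, SE 0.073, adjusted p = 0.0146 in limma). *Spry4*, a feedback inhibitor gene, rose, with 2.63 to 2.65 RPKM in WT and 2.92 to 4.10 RPKM in *Mll1KO* (log2 fold change 0.29, SE 0.085, adjusted p = 0.0369 in limma), a call held in 9 of 17 alternatives. *Fgfr1*, a receptor gene, rose, with 6.21 to 6.99 RPKM in WT and 7.59 to 8.32 RPKM in *Mll1KO* (log2 fold change 0.23, SE 0.059, adjusted p = 0.0194 in limma), a call held in 12 of 17 alternatives, with a value below 0 under the rod and Müller glia scalings. *Spry2*, the most abundant of the list and also a feedback inhibitor gene, averaged 52.1 ± 1.93 RPKM (SD, n = 3) in WT and 50.4 ± 6.87 RPKM (SD, n = 3) in *Mll1KO*, and its samples overlapped.

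Of the list of CEBP and stress transcription factors, 9 of 15 genes had a row, and 2 were called higher and 0 lower, beside 8.81% and 14.5% of all genes. This turned to 1 higher and 6 lower under either the rod or the Müller glia scaling, beside 2.11% and 1.95% of all genes higher and 81.6% and 84.1% lower. By median the list stood at a log2 fold change of -0.00020 (0.012 and 0.011 relative to all genes under these scalings). Without *Mll1KO* c, 1 was called higher (beside 6.21% of all genes), and without *Mll1KO* a 1 lower (beside 13.7%). *Fos*, an immediate early gene, had 7.05, 5.95 and 7.08 RPKM in WT a, b and c, against 13.2, 8.35 and 10.5 RPKM in *Mll1KO* a, b and c. The *Mll1KO* samples were all higher but spread widely (log2 fold change 0.58, SE 0.13, adjusted p = 0.0105 in limma). *Ddit3*, which encodes the stress factor CHOP, rose, with 18.3 to 19.8 RPKM in WT and 21.4 to 22.7 RPKM in *Mll1KO* (log2 fold change 0.20, SE 0.046, adjusted p = 0.0137 in limma), with a value below 0 under the rod and Müller glia scalings. *Atf4*, a stress factor gene and the most abundant of the list, had 126 to 137 RPKM in WT and 114 to 132 RPKM in *Mll1KO*, which overlapped.

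Of 36 genes that astrocytes raise after injury, 13 had a row, and 6 were called higher and 1 lower, beside 8.81% and 14.5% of all genes. This turned to 2 higher and 6 lower under either the rod or the Müller glia scaling, beside 2.11% and 1.95% of all genes higher and 81.6% and 84.1% lower. The list median was 0.15 (0.21 and 0.21 relative to all genes under these scalings), and *Vim* was the most abundant and the only gene called lower. Without *Gfap* and *Vim* it had 11 genes, 5 called higher and 0 lower (median 0.15). The higher calls fell to 3 without WT a (beside 6.61% of all genes), and the lower calls rose to 3 without *Mll1KO* a (beside 13.7%). Beside *Gfap* and *Osmr*, *Cp*, *Fkbp5*, *Serping1* and *Amigo2* were higher. *Cp* encodes the copper protein ceruloplasmin and had 11.6, 12.5 and 12.9 RPKM in WT a, b and c, against 18.4, 19.5 and 19.9 RPKM in *Mll1KO* a, b and c. The genotypes were far apart (log2 fold change 0.60, SE 0.052, adjusted p = 6.61e-05 in limma). *Fkbp5*, a chaperone gene that glucocorticoids induce, rose, with 4.14 to 4.46 RPKM in WT and 4.97 to 6.47 RPKM in *Mll1KO* (log2 fold change 0.32, SE 0.079, adjusted p = 0.0161 in limma). *Serping1*, a complement inhibitor gene, rose, with 2.24 to 2.98 RPKM in WT and 3 to 3.31 RPKM in *Mll1KO* (log2 fold change 0.27, SE 0.082, adjusted p = 0.0410 in limma), a call held in 11 of 17 alternatives. *Amigo2*, an adhesion gene, rose, with 26.3 to 27.2 RPKM in WT and 29.4 to 32.7 RPKM in *Mll1KO* (log2 fold change 0.21, SE 0.046, adjusted p = 0.0111 in limma), with a value below 0 under the rod and Müller glia scalings.

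Of the oxidative and metal stress list, 10 of 13 genes had a row, and 5 were called higher and 1 lower, beside 8.81% and 14.5% of all genes. There were 3 higher and 3 lower under the rod scaling and 3 higher and 5 lower under the Müller glia scaling, beside 2.11% and 1.95% of all genes higher and 81.6% and 84.1% lower. Its genes had a median log2 fold change of 0.16 (0.17 and 0.17 relative to all genes under these scalings). With 1 library left out, 4 to 6 were called higher (beside 5.94% to 8.62% of all genes), and 0 lower without WT c or *Mll1KO* c (beside 11% and 9.29%). *Mt1* encodes a metallothionein, which binds zinc and copper, and had 83.0, 65.5 and 104 RPKM in WT a, b and c, against 126, 127 and 134 RPKM in *Mll1KO* a, b and c. It was the most abundant of the list, and all *Mll1KO* samples were higher although WT samples varied (log2 fold change 0.63, SE 0.13, adjusted p = 0.00681 in limma). *Mt2*, its neighbour, rose, with 13.4 to 21.4 RPKM in WT and 28.1 to 34.1 RPKM in *Mll1KO* (log2 fold change 0.85, SE 0.13, adjusted p = 0.00195 in limma), and shares 73.5% of its exon length with another gene. *Srxn1* rose, with 15.0 to 16.1 RPKM in WT and 18.1 to 19.2 RPKM in *Mll1KO* (log2 fold change 0.23, SE 0.045, adjusted p = 0.00544 in limma), with a value below 0 under the rod and Müller glia scalings. *Sqstm1* also rose, with 56.9 to 64.3 RPKM in WT and 67.4 to 68.8 RPKM in *Mll1KO* (log2 fold change 0.20, SE 0.051, adjusted p = 0.0199 in limma). Its call held in 11 of 17 alternatives, with a value below 0 under the rod and Müller glia scalings. *Gclc*, which encodes a glutathione synthesis enzyme, fell, with 12.7 to 13.3 RPKM in WT and 11 to 11.7 RPKM in *Mll1KO* (log2 fold change -0.20, SE 0.047, adjusted p = 0.0146 in limma).

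**Figure D3:**
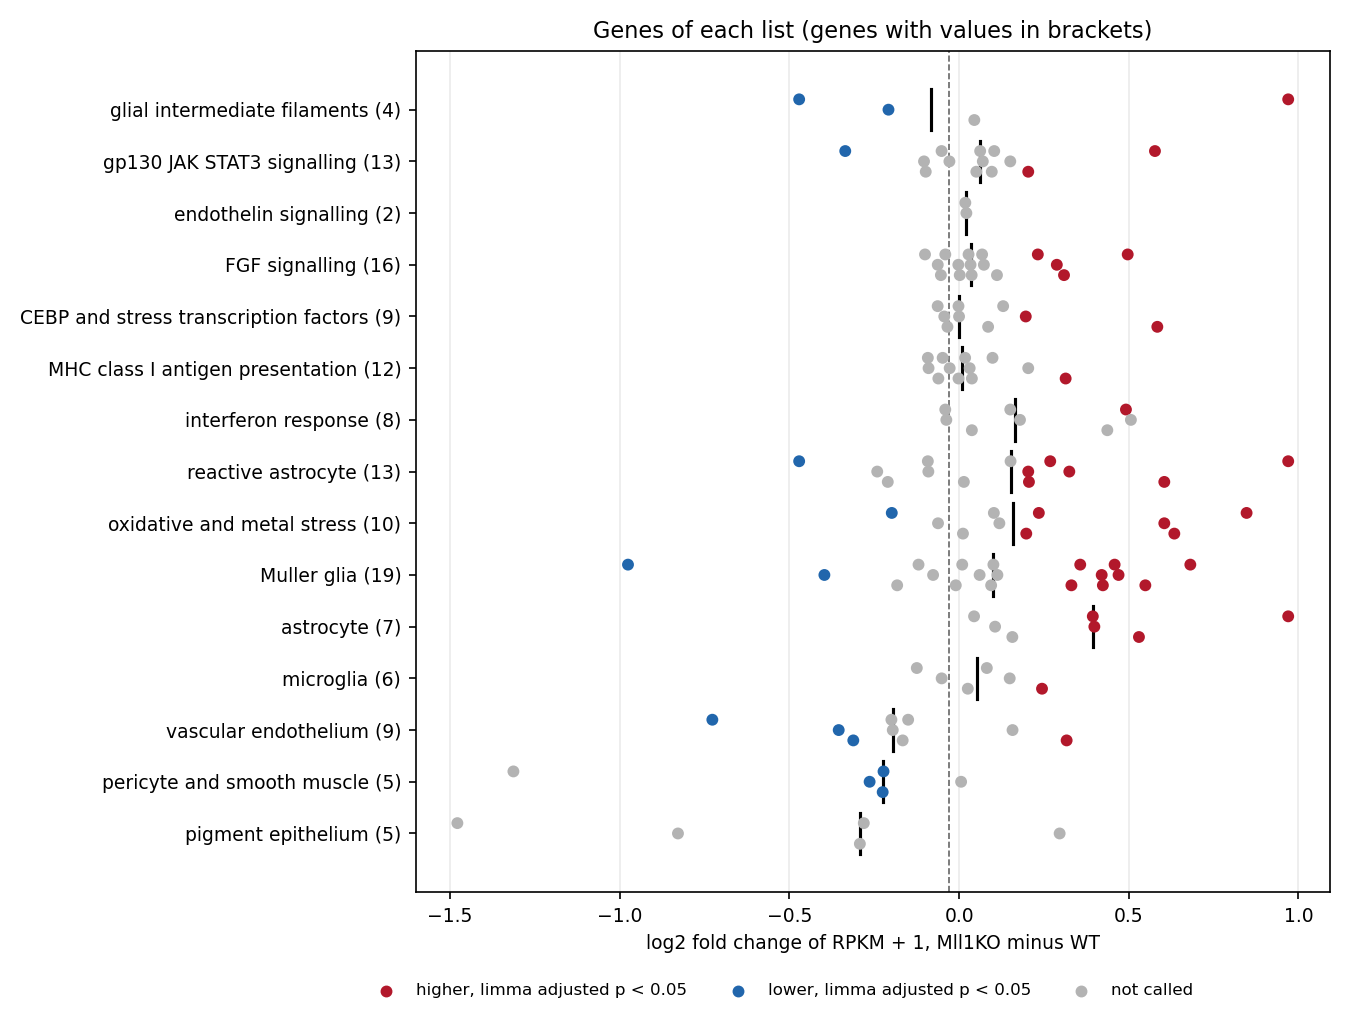
Log2 fold change of RPKM + 1 between *Mll1KO* and WT (horizontal axis) of each gene in 15 lists (vertical axis), coloured by limma call, with black bars for list medians and a dashed line for the median of all genes. Astrocyte genes lie mostly to the right of the line, and vessel genes mostly to the left.

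Markers of cells that can contain these RNAs were compared next. Of 19 Müller glia genes, 8 were called higher and 2 lower, beside 8.81% and 14.5% of all genes. This turned to 5 higher and 11 lower under the rod scaling and 4 higher and 11 lower under the Müller glia scaling, beside 2.11% and 1.95% of all genes higher and 81.6% and 84.1% lower. Their median log2 fold change was 0.10 (0.12 and 0.11 relative to all genes under these scalings). These calls numbered the same with any library left out. Their summed RPKM was 1781, 1770.3 and 1918 in WT a, b and c, against 2222, 2291 and 2265 in *Mll1KO* a, b and c. The sum was higher in every *Mll1KO* sample. *Glul*, which encodes glutamine synthetase and was the most abundant, rose, with 509.7 to 559 RPKM in WT and 718 to 742 RPKM in *Mll1KO* (log2 fold change 0.47, SE 0.054, adjusted p = 0.000317 in limma). *Clu*, which encodes the chaperone clusterin, rose most, with 112 to 132 RPKM in WT and 187 to 208 RPKM in *Mll1KO* (log2 fold change 0.68, SE 0.064, adjusted p = 0.000111 in limma). *Crym*, which encodes a thyroid hormone binding protein, fell most, with 32.0 to 38.7 RPKM in WT and 17.1 to 17.9 RPKM in *Mll1KO* (log2 fold change -0.98, SE 0.062, adjusted p = 1.32e-05 in limma).

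Of the astrocyte list, 7 of 9 genes had a row, and 4 were called higher and 0 lower, beside 8.81% and 14.5% of all genes. There were 3 higher and 1 lower under the rod scaling and 2 higher and 2 lower under the Müller glia scaling, beside 2.11% and 1.95% of all genes higher and 81.6% and 84.1% lower. By median the list stood at a log2 fold change of 0.39 (0.44 and 0.44 relative to all genes under these scalings), and *Pax2* and *Fgfr3* were not analysed here. The list and its sum hold *Gfap*, and its other 6 genes had 3 called higher and 0 lower (median 0.28). These calls numbered the same with any library left out. The summed RPKM was 176, 166 and 189 in WT a, b and c, against 239.9, 246 and 235 in *Mll1KO* a, b and c. Every *Mll1KO* sum was higher. *Aldoc*, an aldolase gene and the most abundant, rose, with 108 to 124 RPKM in WT and 165 to 172 RPKM in *Mll1KO* (log2 fold change 0.53, SE 0.052, adjusted p = 0.000141 in limma). *S100b*, a calcium-binding protein gene, rose, with 4.01 to 4.18 RPKM in WT and 5.51 to 6.07 RPKM in *Mll1KO* (log2 fold change 0.40, SE 0.054, adjusted p = 0.000824 in limma). *Aldh1l1*, a folate enzyme gene, rose, with 2.76 to 3.30 RPKM in WT and 3.65 to 4.84 RPKM in *Mll1KO* (log2 fold change 0.39, SE 0.086, adjusted p = 0.00991 in limma). Müller glia also express several of these genes, and how much of the *Gfap* RNA came from either cell was not tested.

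Of the microglia list, 6 of 15 genes had a row, and 1 was called higher and 0 lower, beside 8.81% and 14.5% of all genes. This turned to 0 higher and 3 lower under either the rod or the Müller glia scaling, beside 2.11% and 1.95% of all genes higher and 81.6% and 84.1% lower. The list median was 0.054 (0.12 and 0.12 relative to all genes under these scalings). Without *Mll1KO* c, 1 was called lower, beside 9.29% of all genes. The summed RPKM was 33.2 to 35.2 in WT and 33.4 to 37.9 in *Mll1KO*, which overlapped.

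Of the vascular endothelium list, 9 of 10 genes had a row, and 1 was called higher and 3 lower, beside 8.81% and 14.5% of all genes. There were 0 higher and 7 lower under either the rod or the Müller glia scaling, beside 2.11% and 1.95% of all genes higher and 81.6% and 84.1% lower. Its genes had a median log2 fold change of -0.20 (-0.16 and -0.16 relative to all genes under these scalings). With 1 library left out, 3 to 4 were called lower, beside 9.08% to 13.7% of all genes. The summed RPKM was 97.3, 96.1 and 94.8 in WT a, b and c, against 77.9, 70.2 and 72.6 in *Mll1KO* a, b and c. Every *Mll1KO* sum was lower. *Kdr*, a VEGF receptor gene and the most abundant, fell, with 34.4 to 39.4 RPKM in WT and 21.1 to 24.6 RPKM in *Mll1KO* (log2 fold change -0.73, SE 0.069, adjusted p = 0.000115 in limma). *Flt1*, another VEGF receptor gene, rose, with 6.41 to 6.67 RPKM in WT and 8.19 to 8.74 RPKM in *Mll1KO* (log2 fold change 0.32, SE 0.050, adjusted p = 0.00190 in limma). *Cldn5*, a tight junction gene, fell, with 23.7 to 26.7 RPKM in WT and 18.1 to 21.7 RPKM in *Mll1KO* (log2 fold change -0.35, SE 0.069, adjusted p = 0.00556 in limma), and *Vwf*, a clotting factor gene, fell as well.

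Of the pericyte and smooth muscle list, 5 of 8 genes had a row, and 0 were called higher and 3 lower (*Rgs5*, *Cspg4* and *Abcc9*), beside 8.81% and 14.5% of all genes. There were 5 lower under either the rod or the Müller glia scaling, beside 81.6% and 84.1% of all genes lower. Its median log2 fold change was -0.23 (-0.16 and -0.16 relative to all genes under these scalings). *Rgs5*, a G protein regulator gene and the most abundant, fell, with 29.5 to 32.7 RPKM in WT and 24 to 27.1 RPKM in *Mll1KO* (log2 fold change -0.26, SE 0.057, adjusted p = 0.00911 in limma). *Acta2*, a smooth muscle actin gene that moved most (log2 fold change -1.31, -2.04 to -0.80 with 1 library left out), had 14.5, 3.21 and 22.3 RPKM in WT a, b and c, against 3.99, 3.56 and 3.34 RPKM in *Mll1KO* a, b and c. WT a and c stood apart, while WT b lay below every *Mll1KO* sample. In pigment epithelium RNA the highest were WT a, WT c and *Mll1KO* b, the last of which was low in *Acta2*. No difference was called in *Acta2* (limma adjusted p = 0.0771) other than lower without WT b and under these scalings. The call of *Abcc9* was lost in 9 of 17 alternatives, and 1 gene of the list was called lower without WT a, beside 10.8% of all genes. How much of the *Vim* RNA came from vessel cells was not tested.

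Neurons and remaining tissues were compared in the same way. Of 19 rod genes, 12 were called higher and 1 lower, beside 8.81% and 14.5% of all genes. This turned to 1 higher and 6 lower under either the rod or the Müller glia scaling, beside 2.11% and 1.95% of all genes higher and 81.6% and 84.1% lower. Unscaled, the median log2 fold change was 0.24 (0.23 and 0.23 relative to all genes under these scalings). With 1 library left out, 8 to 13 were called higher, beside 5.94% to 8.62% of all genes. *Pde6a*, a rod phosphodiesterase gene, rose most (log2 fold change 0.48, SE 0.044, adjusted p = 0.000101 in limma), and *Nr2e3*, a rod transcription factor gene, fell (log2 fold change -0.36, SE 0.078, adjusted p = 0.00946 in limma). Of 11 cone genes, 8 were called higher and 1 lower, beside 8.81% and 14.5% of all genes. There were 4 higher and 3 lower under either scaling, beside 2.11% and 1.95% of all genes higher and 81.6% and 84.1% lower. Unscaled, the median log2 fold change was 0.28 (0.31 and 0.31 relative to all genes under these scalings). With 1 library left out, 6 to 8 were called higher, beside 5.94% to 8.62% of all genes. *Guca1a*, a cyclase activator gene and the most abundant, rose most (log2 fold change 1.55, SE 0.10, adjusted p = 1.43e-05 in limma), and *Opn1sw*, the short-wavelength opsin gene, fell (log2 fold change -0.44, SE 0.065, adjusted p = 0.00121 in limma). Of the retinal ganglion cell list, 11 of 12 genes had a row, and 0 were called higher and 10 lower, beside 8.81% and 14.5% of all genes. There were 11 lower under either scaling, beside 81.6% and 84.1% of all genes lower. Unscaled, the median log2 fold change was -0.53 (-0.53 and -0.53 relative to all genes under these scalings). With 1 library left out, 9 to 10 were called lower, beside 9.08% to 13.7% of all genes. *Pou4f2*, a ganglion cell transcription factor gene, fell most (log2 fold change -0.89, SE 0.10, adjusted p = 0.000287 in limma), and *Sncg*, which encodes gamma-synuclein, was the most abundant (log2 fold change -0.55, SE 0.072, adjusted p = 0.000643 in limma). Of the lens list, 2 of 12 genes had a row and limma called 0 (2 at an unadjusted p below 0.05, beside 36.9% of all genes, and 0 called by limma-voom, beside 25.6%), and the genes moved in opposite directions. *Cryab*, a small heat shock protein gene and the more abundant, was at a log2 fold change of -0.19, and *Cryaa*, a lens crystallin gene with 32.1, 12.4 and 7.28 RPKM in *Mll1KO* a, b and c, against 6.54 to 7.51 RPKM in WT, was at 0.97 (0.42 to 1.42 with 1 library left out). Under the rod scaling 0 was called higher and 1 lower, and under the Müller glia scaling 1 higher and 1 lower, beside 2.11% and 1.95% of all genes higher and 81.6% and 84.1% lower. Without WT b 1 was called lower (beside 9.08% of all genes), and without *Mll1KO* c 1 higher (beside 6.21%). Of the blood list, 4 of 5 genes had a row and limma called 0 (0 at an unadjusted p below 0.05, beside 36.9% of all genes, and 0 called by limma-voom, beside 25.6%), with a median log2 fold change of 0.49 (0.50 and 0.50 relative to all genes under these scalings) and the globin gene *Hbb-bs* the most abundant. Leaving out 1 library moved this median over 0.22 to 0.90. Without WT c, 4 genes were called higher (beside 8.19% of all genes), and the replicate block called 1 higher (beside 7.89%). With the pigment sum as a covariate, the median was 0.77 and 2 were called higher (beside 8.12%).

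The genes most like *Gfap* over the 6 libraries, by Pearson's r of log2(RPKM + 1), were *Herpud1* (r = 0.999), *Csmd3* (r = 0.995), *Celsr2* (r = 0.995), *Gm10544* (r = 0.995) and *Tnfaip3* (r = 0.994). Genes that differ between the genotypes in the same direction are alike over these 6 libraries, so r is a description only. *Herpud1*, an endoplasmic reticulum stress gene, had a mean of 17.1 RPKM in WT and 21.1 RPKM in *Mll1KO*. *Tnfaip3*, which encodes an inhibitor of NF-kB, had a mean of 22.7 RPKM in WT and 39.9 RPKM in *Mll1KO*.

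Promoter sequences were read from RefSeq on GRCm38.p6, from 250 bases before to 50 bases after the start. The windows are chr11:102897151-102897450 for *Gfap* (minus strand), chr2:13574061-13574360 for *Vim* (plus strand), chr11:100939491-100939790 for *Stat3* (minus strand) and chr2:122147437-122147736 for *B2m* (plus strand). The annotated *Gfap* and *Vim* genes reach further upstream than their windows, so other starts lie outside them. Both strands were searched for 4 motifs: the STAT core TTCNNNGAA, present in 8.30% of 32851 promoters, GAAANNGAA of interferon-stimulated elements (8.56%), TATAAA (13.6%) and CCAAT (37.4%). The *Gfap* window held the STAT core 1 time, beginning 2 bases before the start, and none of the other motifs. The *Vim* window held TATAAA 32 bases before the start and CCAAT 2 times. The *Stat3* window held CCAAT 2 times, and the *B2m* window held GAAANNGAA, TATAAA and CCAAT 1 time each. The TATAAA match of *B2m* was on the opposite strand (TTTATA), 152 to 147 bases before the start. CpG pairs numbered 3 in *Gfap*, 11 in *Vim*, 15 in *Stat3* and 14 in *B2m*, beside a median of 7 over all promoters. A match describes letters and is not a measured binding site. The windows below read along the strand of the gene, with motif matches in capitals.

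Gfap: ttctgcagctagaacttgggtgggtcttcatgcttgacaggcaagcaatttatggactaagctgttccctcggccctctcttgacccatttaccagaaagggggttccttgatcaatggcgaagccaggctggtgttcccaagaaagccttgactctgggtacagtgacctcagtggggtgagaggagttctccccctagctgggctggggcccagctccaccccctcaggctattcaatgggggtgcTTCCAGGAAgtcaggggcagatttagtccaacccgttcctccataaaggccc

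Vim: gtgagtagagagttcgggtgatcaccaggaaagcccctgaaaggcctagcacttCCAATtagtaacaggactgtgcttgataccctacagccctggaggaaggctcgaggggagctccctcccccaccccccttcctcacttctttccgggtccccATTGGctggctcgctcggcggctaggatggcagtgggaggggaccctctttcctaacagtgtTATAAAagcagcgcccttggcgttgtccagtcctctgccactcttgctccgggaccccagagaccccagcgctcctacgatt

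B2m: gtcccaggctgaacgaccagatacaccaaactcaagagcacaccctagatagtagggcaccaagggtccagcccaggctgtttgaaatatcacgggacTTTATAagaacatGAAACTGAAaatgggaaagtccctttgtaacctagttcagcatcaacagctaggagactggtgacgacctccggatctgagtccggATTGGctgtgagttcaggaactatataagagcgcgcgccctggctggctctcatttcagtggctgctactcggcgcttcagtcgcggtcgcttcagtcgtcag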

How the data were processed

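The deposited table holds RPKM, which the authors made by aligning single-end reads with STAR 2.0.4b, counting reads per gene with featureCounts 1.45, keeping genes with a CPM above 5 in at least 5 samples, and dividing by gene length and library total in edgeR. The table has 11404 lines for 11339 genes, and 18 symbols that had been turned into dates were restored by gene ID. The authors' own columns of log2 fold change, mean log CPM, p and false discovery rate were not used. The 6 libraries are 3 *Mll1KO* and 3 WT pools of a pair of retinas at P14. Their totals, inferred from the RPKM values, were 23836033, 19777205 and 19323512 reads for WT replicates a, b and c, and 23348923, 19855963 and 17961097 for *Mll1KO* replicates a, b and c. Whole reads within 0.05 could be recovered from the RPKM of 100.0% of genes (253 of them allow more than 1 gene length, the shortest being taken), with at least 90 reads per gene and library.

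Log2(RPKM + 1) of all genes was fitted with genotype as the only term in limma 3.58.1 (lmFit, then eBayes with a variance trend) under R 4.3.3, and genes were called at a Benjamini-Hochberg adjusted p below 0.05 over all 11339 genes. Ratios within libraries were compared by exact permutation of the 6 samples. The fit was also run on simulated reads with 200 genes changed and the same spread set for every gene. It called 100% of genes changed by a log2 of 1 and 99% of those changed by 0.5. Of its calls, 3.40% were false. Genes that vary between samples as *B2m* and *Acta2* do were not simulated. Tables, figures and motif searches were made with Python 3.11.15, numpy 2.4.6, pandas 2.3.3 and matplotlib 3.10.9. Gene coordinates and exons shared between genes are from GENCODE vM21, and promoters from RefSeq, both on GRCm38.

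Alternatives were pseudocounts of 0.1 and 5, TMM (trimming 30% on fold change and 5% on abundance), RLE and upper-quartile factors, equal sums over rod or Müller glia genes, limma-voom on recovered reads, a mean RPKM of at least 1, the replicate letter as a block, and each library left out in turn. A pigment epithelium covariate and a fit to the 3 libraries with the least pigment epithelium RNA were chosen after seeing the data. The latter has WT b as its lone WT sample, assumed to vary like the *Mll1KO* samples, and is not counted among the 17 alternatives.

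The members and the 20 further lists were chosen with earlier results of these data known. These lists hold glial intermediate filaments, gp130, JAK and STAT3 signalling, endothelin signalling, FGF signalling, CEBP and stress transcription factors, MHC class I, interferon response, reactive astrocyte, oxidative and metal stress, and markers of Müller glia, astrocytes, microglia, vascular endothelium, pericytes and smooth muscle, rods, cones, retinal ganglion cells, pigment epithelium, lens and blood. Named by rule were the members, *Kmt2a*, each list's most abundant gene and its called genes with the highest and lowest log2 fold change, and the 5 genes most correlated with *Gfap*. From these, 2 list genes are left out. *Nes*, *Synm*, *Osmr*, *Lifr*, *Il6st*, *Fgfr1*, *Spry4*, *Etv5*, *Ddit3*, *Serping1*, *Fkbp5*, *Amigo2*, *Srxn1*, *Sqstm1*, *S100b*, *Aldh1l1*, *Cldn5*, *Vwf*, *Cspg4*, *Abcc9*, *Pmel*, *Cryaa* and *Acta2* were chosen after their values were seen. So was *Cp*, which was not followed over the alternatives.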

Additional observations from a re-analysis of the deposited data

How the results depend on the processing

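*Gfap* and *Vim* kept their direction and stayed past the threshold in 17 alternatives with at least 2 samples per genotype, with log2 fold changes of 0.62 to 1.15 (limma adjusted p up to 0.000688) and -0.78 to -0.44 (limma adjusted p up to 0.000679). Over these alternatives and the named genes other than *Cp*, 939 values kept their direction and side of the threshold, 67 kept their direction but were no longer past it, 33 came past it, and 31 changed direction.

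Over all genes, 9490 were called with equal rod sums (239 higher, 9251 lower) and 9762 with equal Müller glia sums (221 higher, 9541 lower), which set the median of all genes to -0.29 and -0.30. Of the 4 listed genes, 4 were called with equal Müller glia sums (1 higher, 3 lower). Of the 177 genes of the related lists, which include these 4, 76 were called (52 higher, 24 lower), beside 23.3% of all genes. With equal rod sums 117 were called (20 higher, 97 lower), beside 83.7% of all genes. With equal Müller glia sums 121 were called (19 higher, 102 lower), beside 86.1% of all genes. In the 3 libraries with the least pigment epithelium RNA, chosen after seeing the data, 806 genes were called, but WT b is the lone WT sample there, without a replicate and assumed to vary like the *Mll1KO* samples, so this fit is not counted as support. Leaving out 1 library gave 1704 to 2536 genes, against 2643, with 1704 without WT replicate b and 1757 without *Mll1KO* replicate c. It gave 2 to 2 of the listed genes and 66 to 75 genes of the related lists.

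The log2 fold change changed direction with equal rod sums and with equal Müller glia sums for *Amigo2* -0.077 and -0.094, *Celsr2* -0.043 and -0.060, *Csmd3* -0.027 and -0.037, *Ddit3* -0.083 and -0.10, *Ece1* -0.25 and -0.27, *Fgfr1* -0.025 and -0.041, *Il6st* -0.22 and -0.24, *Sqstm1* -0.090 and -0.11, *Srxn1* -0.042 and -0.058, *Stat3* -0.16 and -0.17, *Synm* -0.21 and -0.22. Equal Müller glia sums turned *Herpud1* to -0.0045. For *B2m* the range without 1 library was -0.33 to 0.11, at 0.074 without WT a, 0.11 without WT c, and 0.025 and 0.026 without *Mll1KO* a and c. *B2m* was at 0.26 with the pigment covariate and called higher at 0.37 in the 3 libraries with the least pigment RNA, both chosen after seeing the data. The latter keep WT b, the WT sample lowest in *B2m*, as their lone WT sample, so this sign follows from the choice and supports nothing. The covariate turned *Synm* to -0.0070 and *Ttr* to 0.019, the 3 libraries turned *Atf4* to 0.028 and *Acta2* to 0.15, and leaving out *Mll1KO* b turned *Spry2* to 0.0074. Where not given by the scaling itself, the cause was not tested.

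Calls were lost without WT a *Abcc9*, *Cspg4*, *Fkbp5*, *Osmr*, *Serping1*, *Spry4* and *Sqstm1*, without WT b *Abcc9*, *Etv5*, *Fgfr1*, *Nes*, *Osmr*, *Serping1*, *Spry4* and *Sqstm1*, without WT c *Abcc9*, *Gclc*, *Nes*, *Osmr* and *Spry4*, without *Mll1KO* a *Abcc9*, *Nes*, *Osmr* and *Spry4*, without *Mll1KO* b *Abcc9*, *Fgfr1*, *Nes*, *Osmr*, *Serping1* and *Sqstm1*, and without *Mll1KO* c *Cspg4*, *Ddit3*, *Fgfr1*, *Gclc*, *Nes*, *Serping1*, *Spry4* and *Sqstm1*.

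The replicate block gave 2242 genes (895 higher, 1347 lower). The letters do not pair the samples: residual correlations were -0.039, -0.19 and -0.0071 for equal letters (a, b and c) and up to 0.13 for others. Every gene had at least 90 reads in each library.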
